A study of Mus musculus with 32 samples.

Results

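The smooth muscle contractile genes comprise 8 genes, Acta2, Myh11, Tagln, Cnn1, Actg2, Des, Lmod1 and Myocd, chosen by their symbols among the 35275 genes of the deposited count table. All 8 were found, and all 8 passed the filter on low counts in both experiments. Their RNA was measured by sequencing poly(A) RNA from whole lung of C57B/6 mice, in 32 libraries. In the first experiment, males and females, with no surgery named, were kept for 5 months in room air (3 libraries per sex) or in cigarette smoke (5 libraries per sex). In the second experiment all animals were females in cigarette smoke, after sham surgery or ovariectomy. There were 3 libraries per surgery at 3 months of smoke and 5 per surgery at 5 months, and the experiment has no room air group. The animals' ages are not given in the labels.

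Smooth muscle cells line the airways and the vessels of the lung, and their tone sets airway and vessel calibre. In these cells, calcium entry activates myosin light chain kinase, and phosphorylated smooth muscle myosin then pulls on filaments of smooth muscle actin. The contractile genes are known targets of the transcription factor SRF, which binds CArG boxes, and of its muscle-restricted coactivator myocardin. Acta2 is also expressed by myofibroblasts and some pericytes, and desmin is abundant in cardiac and skeletal muscle, so in whole lung the RNA of these genes does not come from smooth muscle cells alone.

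Depth ran from 13790052 to 24497332 counts per library. Nothing in the labels ties a library to an animal of its own, so each p-value here reflects library-to-library spread, which may be technical. Some libraries stood apart within their groups, as seen from the values of the 8 genes themselves. Smoke-exposed male library 4 was the highest of its 5 libraries for all 8 genes. In sham females at 5 months of smoke, library 5 was the highest and library 3 the lowest for 7 of the 7 genes other than Myocd. The smoke comparison in males is given with and without library 4, and the surgery comparison at 5 months with and without sham libraries 5 and 3.

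The genes fall into 4 roles. Acta2 (ENSMUSG00000035783, GRCm38 chr19:34241090-34255336, minus strand) and Actg2 (ENSMUSG00000059430, chr6:83512905-83536265, minus) encode the smooth muscle alpha and gamma actins. Myh11 (ENSMUSG00000018830, chr16:14194527-14291408, minus) encodes the smooth muscle myosin heavy chain. Tagln, Cnn1 and Lmod1 encode proteins that bind or organise actin filaments: transgelin ( ENSMUSG00000032085, chr9:45929628-45936058, minus), calponin (ENSMUSG00000001349, chr9:22099281-22109630, plus) and leiomodin (ENSMUSG00000048096, chr1:135324807-135368065, plus). Des (ENSMUSG00000026208, chr1:75360329-75368579, plus) encodes the intermediate filament desmin. Myocd (ENSMUSG00000020542, chr11:65176561-65269989, minus) encodes the coactivator myocardin. Whether counting used strand is not given in the sources used here. Among 50-base stretches of Tagln transcripts, 55.4% are also in the antisense gene Gm48529 and 2.98% in the overlapping, opposite Pcsk7. For Des, 4.61% are in the antisense gene Gm15179, whose count did not exceed 5 in any library. If strand was not used, reads of Tagln and of its antisense partners cannot be told apart, and the Tagln values below are uncertain to that extent. For the other 6 genes, shared stretches made up at most 0.34%.

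The sequence just before the start site was searched because CArG boxes are the textbook SRF site. Whether this sequence has a part in how the genes varied across libraries was not tested. The RefSeq promoter table (GRCm38.p6) holds 4 of the 8 genes, Acta2, Cnn1, Des and Lmod1. Both strands of the 250 bases before each start were searched for the strict CArG box, which is CC, then 6 bases that are A or T, then GG, and for a looser form with at most 1 G or C among the 6. Among 32851 RefSeq promoters of the same length, 1.47% hold the strict box and 8.59% hold the looser form, which includes the strict one. Acta2 holds 2 boxes of the looser form, in bases 84 to 75 and 34 to 25 before the start, and no strict one. In Cnn1, Des and Lmod1 neither form is in this window. The Acta2 stretch is shown whole, at chr19:34255374-34255623 on the minus strand, with both boxes in capitals.
Acta2 promoter: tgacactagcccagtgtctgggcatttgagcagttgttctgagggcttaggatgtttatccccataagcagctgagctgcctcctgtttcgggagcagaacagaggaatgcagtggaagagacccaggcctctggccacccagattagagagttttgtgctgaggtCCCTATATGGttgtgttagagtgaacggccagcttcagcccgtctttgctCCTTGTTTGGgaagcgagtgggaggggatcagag

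Strict boxes stand in the promoters of 4 of the 19 genes with an entry among 20 other contractile and cytoskeletal genes, and in 1 of 4 among 8 genes of the SRF pathway. Myl9 (smooth muscle regulatory light chain) and Srf itself are shown because their RNA is described below, and Myl6 (the partner essential light chain) because it holds a box and did not pass any test below. The windows of 40 bases, with the box in capitals, lie at chr2:156775288-156775327 on the plus strand for Myl9 and chr10:128493035-128493074 on the minus strand for Myl6. The 2 windows of Srf overlap, at chr17:46556220-46556259 and chr17:46556200-46556239, both on the minus strand.
Myl9: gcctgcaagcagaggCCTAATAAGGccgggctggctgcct
Myl6: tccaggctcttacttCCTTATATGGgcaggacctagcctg
Srf, first box: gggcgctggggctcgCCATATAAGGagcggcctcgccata
Srf, second box: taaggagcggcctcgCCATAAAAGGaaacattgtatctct

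Levels between genes were compared in TPM, which scales each count by gene length. Tagln was the most abundant gene, with group means between 85.4 ± 6.77 TPM in ovariectomized females at 5 months of smoke (SD, n = 5) and 226 ± 22.1 TPM in male air (n = 3). Acta2 followed, between 43.3 ± 5.13 TPM in sham females at 3 months (n = 3) and 164 ± 18.2 TPM in male air (n = 3). Des ranged from 30.6 to 87.1 TPM by group mean. Myh11, Cnn1 and Actg2 lay close together, and their highest group means were 26.0, 26.4 and 27.2 TPM, all in female air. Lmod1 reached 6.59 TPM in female air. Myocd, which encodes the upstream coactivator, was the lowest of the 8 and did not exceed 0.722 TPM in any library. Its count was 0 in library 5 of the ovariectomized females at 5 months, where 3 counts, the limit that a count of 0 allows, would be 0.181 CPM. Counts of 39 or fewer per library limit what can be said of Myocd.

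**Figure D1:**
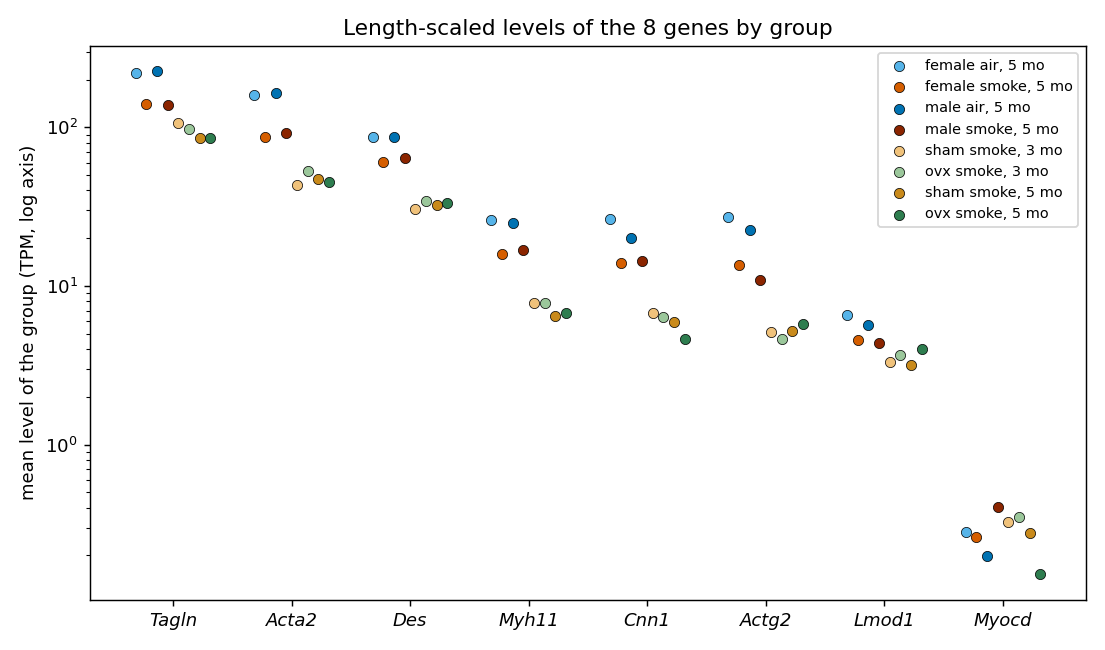
Mean level of each gene in each of the 8 groups (TPM, log axis), with genes ordered by level and 1 point per group. For the 7 genes other than Myocd the points of both air groups lie highest, those of the first experiment's smoke groups next, and those of the surgery experiment lowest.

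The groups took the same broad order for 7 of the 8 genes: both air groups first, then both smoke groups of the first experiment, then the 4 groups of the surgery experiment. Myocd did not follow it and had its highest mean in smoke-exposed males (0.406 ± 0.243 TPM, n = 5). For Acta2 the ranges of neighbouring groups in this order overlapped except between female air and male smoke. For Tagln they separated at 2 places, between female air and female smoke and between male smoke and sham females at 3 months. For Myh11, Cnn1 and Des the only gap lay between female smoke and the highest group of the surgery experiment. For Actg2, Lmod1 and Myocd every pair of neighbours overlapped.

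Set side by side over the whole series, the 6 air libraries of the first experiment and the 16 smoke libraries of the second did not overlap for any of the 7 genes. The air median was 5.55 times the second experiment's median for Actg2, 3.77 times for Myh11, 3.48 times for Acta2 and 1.60 times for Lmod1. The 10 smoke libraries of the first experiment lay between, at 1.21 (Lmod1) to 2.39 (Actg2) times the second experiment's median for the same 7 genes. For Myh11 and Des the smoke libraries of the 2 experiments did not overlap. The air libraries come from both sexes, whereas the second experiment's libraries all come from females in smoke after surgery, 6 of the 16 at 3 months. Exposure, sex, months, surgery and the experiment itself therefore cannot be told apart in these gaps, and no test was made across the experiments.

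The first question is what smoke does to these genes in females, from 5 libraries in smoke and 3 in air. Of the 8 genes, 3 fell: Acta2, Tagln and Des. None rose. The background is that 3.18% of 16361 tested genes were called lower in this comparison and 7.7% in either direction (edgeR quasi-likelihood test, Benjamini-Hochberg adjusted p under 0.05). The fitted log2 difference was negative for 8 of 8 genes, with a median of -0.72 beside -0.01 over all tested genes. The genes varied together within groups (median Pearson r of pairs 0.629), so the 8 signs are not separate results. In bulk tissue, fewer cells of a type and less RNA per cell cannot be told apart.

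Acta2 stood at 132, 116 and 173 CPM (counts scaled to library size by the TMM method) in the 3 female air libraries. In the 5 smoke libraries it stood at 96.1, 54.8, 70.1, 58.4 and 86.8 CPM. Every smoke library lay below every air library. The fall was 1.91-fold (log2 -0.94, SE 0.25, adjusted p = 0.0420). Tagln was at 161, 153 and 201 CPM in air, and at 119.8, 80.5, 125, 89.3 and 116 CPM in smoke. Again the groups did not overlap, and the fall was 1.62-fold (log2 -0.69, SE 0.16, adjusted p = 0.0164). Des was at 123, 111 and 153 CPM in air, and at 103, 77.1, 81.6, 82.0 and 89.4 CPM in smoke. The highest smoke library lay just below the lowest air library, and the fall was 1.49-fold (log2 -0.58, SE 0.16, adjusted p = 0.0381).

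Myh11 and Lmod1 also had no overlap between smoke and air in females, but neither passed the test. Myh11 was at 81.7, 83.9 and 87.3 CPM in air, against 62.2, 43.2, 43.0, 46.2 and 56.6 CPM in smoke (log2 -0.75, SE 0.28, adjusted p = 0.145). Lmod1 was at 12.8 ± 3.16 CPM in air (n = 3) and 8.48 ± 1.05 CPM in smoke (n = 5; log2 -0.59, SE 0.19, adjusted p = 0.0604). With these, 5 of 8 genes were lower in smoke without overlap, beside 6.47% of all tested genes. Actg2 had the lowest fitted value, -1.04 (SE 0.48, adjusted p = 0.229), with 17.8 ± 2.69 CPM in air and 8.62 ± 3.62 CPM in smoke. Its smoke library 1, at 14.8 CPM, stood just above the lowest air library at 14.7 CPM. Cnn1 gave -0.98 (SE 0.57, adjusted p = 0.368) and Myocd -0.13 (SE 0.57, adjusted p = 0.929).

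**Figure D2:**
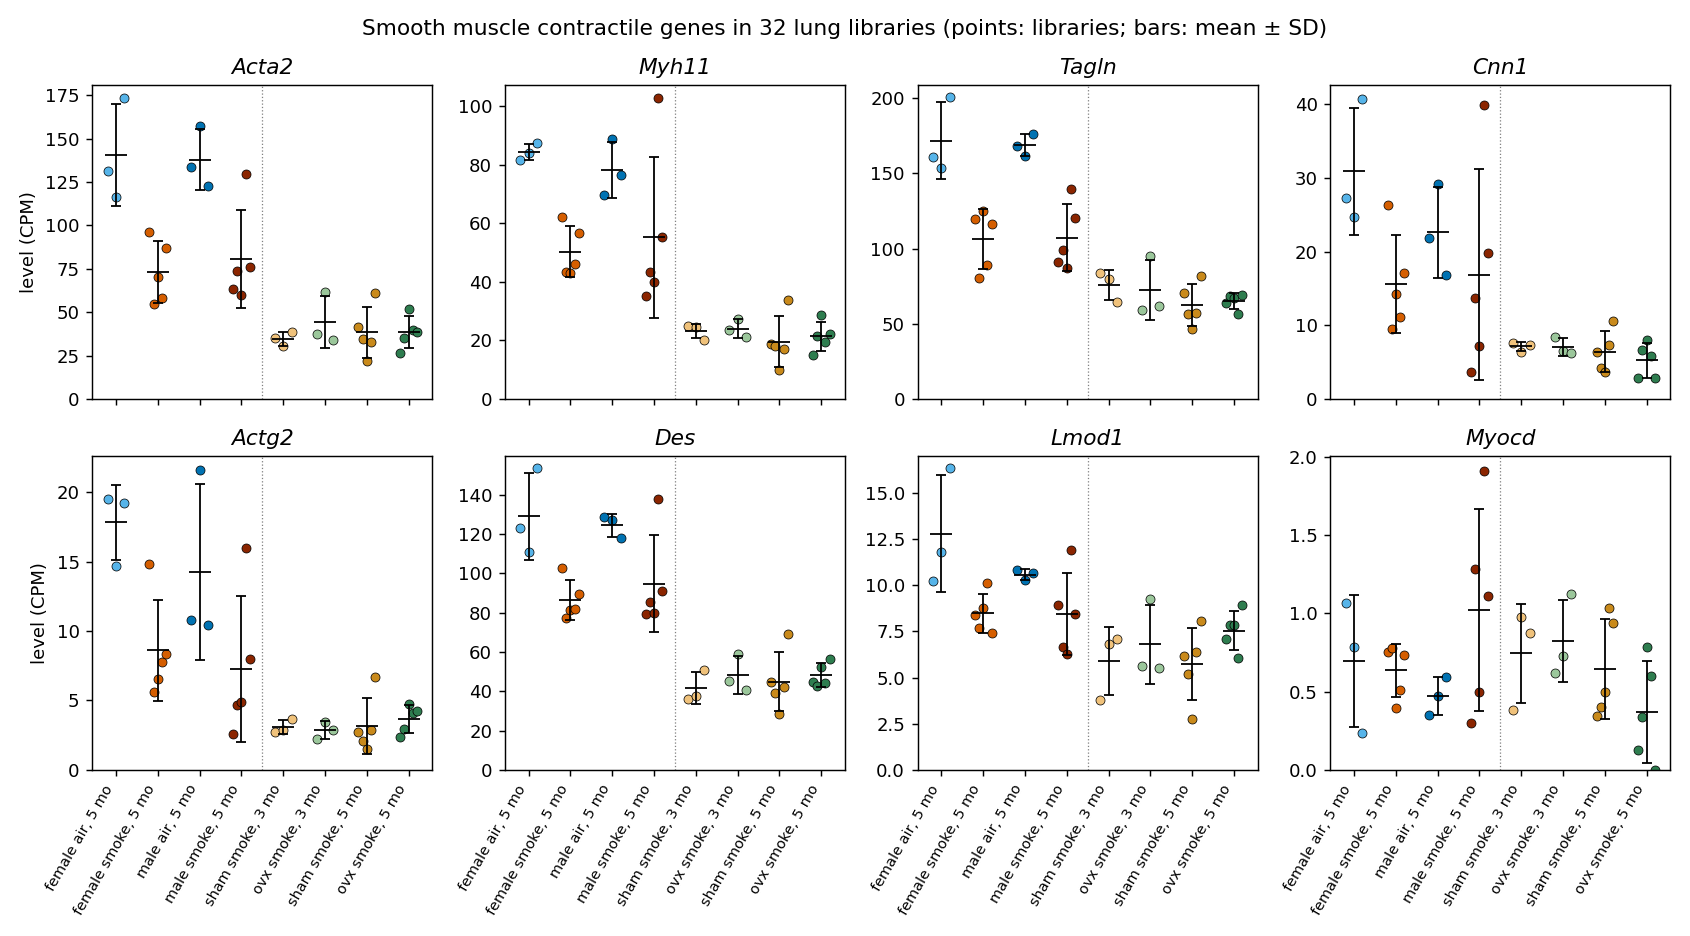
Level of each gene (CPM, normalized within each experiment) in every library, grouped by sex, surgery, exposure and months, where points are libraries and bars are the mean with SD. The dotted line parts the experiments; in smoke-exposed males library 4 is the highest point for all 8 genes and passes the lowest male air library for every gene but Tagln.

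The female calls rested on few libraries, and calls over all genes also fell when 1 library was left out. Over all genes 1259 were called with every library, 490 without female air library 3 and at most 1151 with 1 library left out. Without female air library 3, the highest for Acta2, Tagln and Des, the Tagln call ended (adjusted p = 0.136). It held without any other library. Acta2 remained called only without smoke library 1 or 5 (adjusted p up to 0.219 elsewhere), and Des only without air library 2 or smoke library 1 (up to 0.248). The log2 differences of all 3 genes remained negative in each of these 8 fits, between -1.07 and -0.76 for Acta2.

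In males the same comparison, again 5 smoke against 3 air libraries, called 1 of the 8 genes. Tagln fell, as 5.33% of the tested genes did, with 10.3% called in either direction. A count of 1 in 8 is near these shares and is no result about the 8 genes as a list. The gene stood at 168, 162 and 176 CPM in male air, and at 91.0, 99.2, 86.9, 139 and 120.1 CPM in male smoke. The groups did not overlap and the fall was 1.57-fold (log2 -0.65, SE 0.16, adjusted p = 0.0189). It was the only one of the 8 without overlap, a count near the 8.21% of all genes lower in this way. The call ended without any 1 of the 3 male air libraries (adjusted p up to 0.0868). Calls over all genes fell too, from 1678 to 1445, 1140 and 962 without male air library 1, 2 and 3.

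The log2 difference was negative for 7 of 8 genes in males, with a median of -0.45 beside 0.01 over all genes. As in females, these signs are not separate results. Acta2 was at 134, 157 and 123 CPM in male air and at 63.3, 73.6, 59.9, 129.7 and 75.9 CPM in male smoke (log2 -0.77, SE 0.25, adjusted p = 0.0771). Smoke library 4 lay inside the air range, and the other 4 lay far below it. Des was at 128, 127 and 118 CPM in air, against 79.5, 85.6, 79.6, 138 and 91.2 CPM in smoke (log2 -0.39, SE 0.16, adjusted p = 0.145). Its smoke library 4 was above every male air library, as it was for Myh11 (103 CPM, against 69.6 to 88.6 CPM in air). Cnn1 varied most, between 3.72 and 39.9 CPM among the 5 smoke libraries. Myocd had the only positive value, 1.12 (SE 0.60, adjusted p = 0.271), from 0.472 ± 0.121 CPM in air (n = 3) and 1.02 ± 0.646 CPM in smoke (n = 5).

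Without male smoke library 4, 5 of the 8 genes were called lower: Acta2, Actg2, Des, Myh11 and Tagln. The Acta2 difference was then -1.02 (adjusted p = 0.00491), that of Myh11 -0.86 (0.00147) and that of Des -0.58 (0.00152). For Actg2 the adjusted p was 0.0240. Over all genes, 1694 were called in either direction in that fit, beside 1678 with every library. Library 4 was singled out by its high values for these same genes, so leaving it out widens the fall. The 5 calls are therefore no separate support. Leaving out any other male smoke library gave 1 call, and leaving out any male air library gave 0. Over all genes, those smoke fits called 1243 to 1421 and those air fits 962 to 1445.

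Whether the smoke difference itself depended on sex was tested with an interaction term, which called 0 of the 8 genes and 1 gene of all (0.00611%). None of the 8 reached an unadjusted p under 0.05, which 5.75% of all genes did. The interaction was 0.16 for Acta2 (SE 0.37, adjusted p = 0.984) and 0.04 for Tagln (SE 0.23, adjusted p = 0.997), so that ± 2 SE spans -0.57 to 0.90 and -0.43 to 0.51. The calls in females and in males are thus not shown to differ between the sexes. Sex alone called 0 of 8 genes in air (0.177% of all) and 0 of 8 in smoke (0.189%), with no member at an unadjusted p under 0.05 in either (9.27% of all genes in air and 7.74% in smoke). In air, males and females were close for Acta2 (138 ± 17.6 and 140.4 ± 29.5 CPM) and for Tagln (168.7 ± 7.14 and 172 ± 25.7 CPM).

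What loss of the ovaries does under smoke was asked at 3 and at 5 months. At 3 months 0 of the 8 genes were called, as were 0% of 16874 tested genes, although 1568 of all genes (9.29%) had an unadjusted p under 0.05. At 5 months 0 of the 8 were called, beside 1.36% of all genes. No member had an unadjusted p under 0.05 at either time, beside 15.5% of all genes at 5 months. No member separated the surgeries without overlap, whereas 15.2% of all genes did at 3 months and 3.85% at 5 months. At 5 months Acta2 was at 41.6, 34.3, 21.6, 32.9 and 61.1 CPM in the sham libraries. In the ovariectomized it was at 26.5, 35.4, 51.7, 39.9 and 38.5 CPM. The sham libraries spread more widely and enclosed the others, and the difference was 0.00 (SE 0.27, ± 2 SE from -0.53 to 0.54). For Tagln it was 0.06 (SE 0.16, ± 2 SE from -0.26 to 0.37), the tightest interval of the 8. Lmod1 gave 0.40 (SE 0.24, adjusted p = 0.443).

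The values at 5 months moved with single sham libraries, although 0 of the 8 genes were called without any 1 of the 10 libraries. Without sham library 5, the highest, Acta2 gave 0.24 (adjusted p = 0.724), Tagln 0.17 (0.647) and Lmod1 0.56 (0.321). Myh11 went from 0.13 to 0.42 (adjusted p = 0.317) and Actg2 from 0.21 to 0.69 (0.290) in that fit. Without sham library 3, the lowest, Acta2 gave -0.15, Tagln -0.03, Myh11 -0.04, Actg2 0.03 and Lmod1 0.22, and Des went from 0.32 without library 5 to -0.02. The sign for Acta2, Tagln, Myh11 and Des thus depended on which library was left out.

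At 3 months, Acta2 was at 34.9, 30.3 and 38.6 CPM in sham and at 37.5, 61.7 and 33.9 CPM in ovariectomized females. The ovariectomized library 2 stood alone at the top and the rest overlapped (log2 0.36, SE 0.34, adjusted p = 0.792). From 3 to 5 months of smoke, with surgery adjusted, 0 of 8 genes were called (0.13% of all) and 0 had an unadjusted p under 0.05 (13.4% of all). Values lay between -0.67 for Myocd (SE 0.53) and 0.20 for Actg2 (SE 0.27), and Actg2 gave -0.03 without sham library 5 at 5 months. The surgery by time interaction also called 0 of 8 (0% of all genes), and 0 of 8 had an unadjusted p under 0.05, as 844 of all genes (5%) did.

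**Figure D3:**
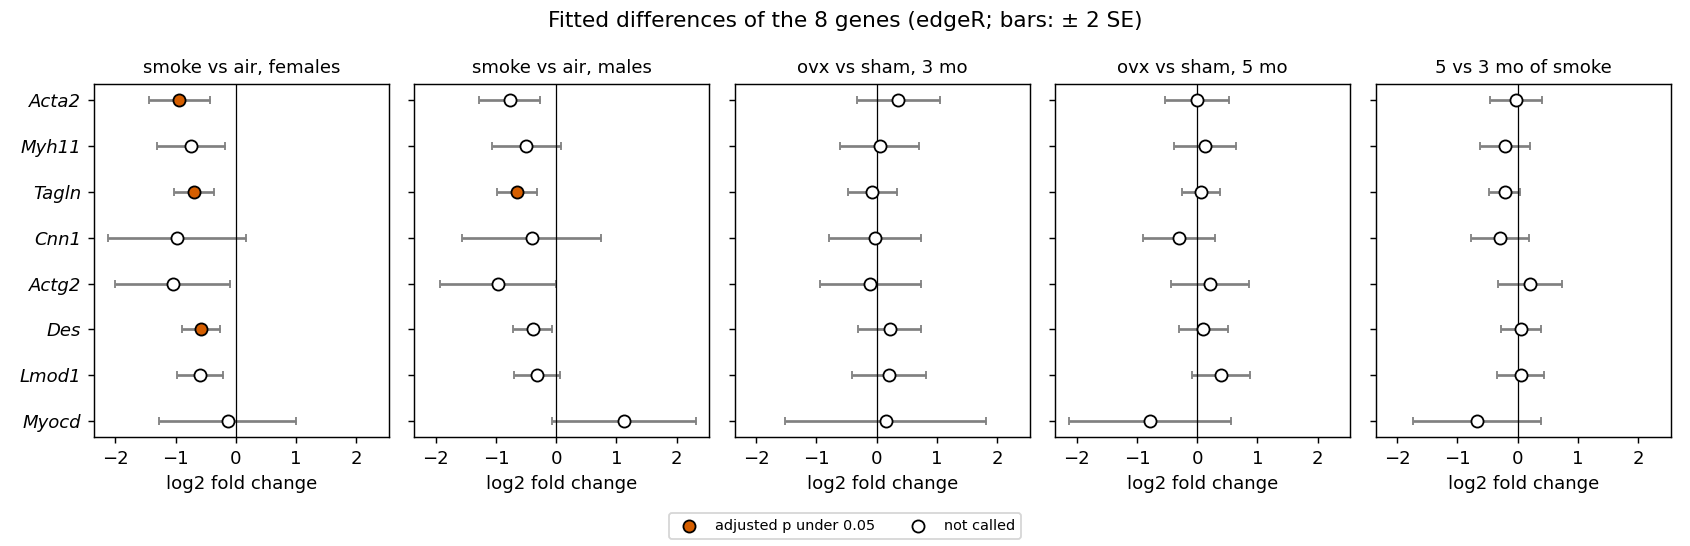
Fitted log2 fold changes of the 8 genes in 5 comparisons (x axis), with bars of ± 2 SE and filled points at an adjusted p under 0.05. Points of both smoke comparisons lie left of 0 except Myocd in males, and those of the surgery and time comparisons lie around 0.

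The other genes of the contractile apparatus changed in part. Of 20 further contractile and cytoskeletal genes, 3 fell and 1 rose in females, and 5 fell and 1 rose in males. Over all tested genes 7.7% were called in females and 10.3% in males, and 3.18% and 5.33% of all tested genes fell. These shares are the background for each list below too. The list's median log2 difference was -0.11 in females and -0.23 in males, beside -0.01 and 0.01 over all genes. Smtn, which encodes the smooth muscle actin-binding protein smoothelin, fell 1.69-fold in females (log2 -0.76, SE 0.12) and 1.98-fold in males (log2 -0.99, SE 0.12). It was at 50.6 ± 5.41 CPM in female air and 29.8 ± 4.61 CPM in female smoke. In males all 5 smoke libraries, library 4 included, lay between 25.4 and 32.6 CPM, against 51.0 to 65.9 CPM in air. Myl9, the light chain that the kinase phosphorylates, fell 1.60-fold in females (adjusted p = 0.0438). In males it was 68.5 ± 3.58 CPM in air and 49.2 ± 12.6 CPM in smoke (log2 -0.47, adjusted p = 0.144).

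Pdlim7, a PDZ and LIM domain protein of actin filaments, fell in females by 0.46 on the log2 scale (SE 0.10). In males Flna, the actin crosslinker filamin A, fell by 0.40 (SE 0.08), and Pgm5, a protein of adherens junctions, fell by 0.48 (SE 0.11). Synm, which encodes the intermediate filament protein synemin, a partner of desmin, went the other way. Its level was 1.37-fold higher in smoke in females and 1.26-fold higher in males, going from 83.7 ± 5.36 to 114 ± 7.52 CPM and from 94.2 ± 7.07 to 119 ± 8.57 CPM. The general light chain Myl6, whose promoter holds a strict box, gave 0.11 in females and 0.12 in males (SE 0.10 each), and neither passed the test. The same was true of myosin light chain kinase itself (Mylk, -0.10 and -0.23, SE 0.09 each) and of caldesmon (Cald1, -0.04 and -0.15, SE 0.07 each).

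**Figure D4:**
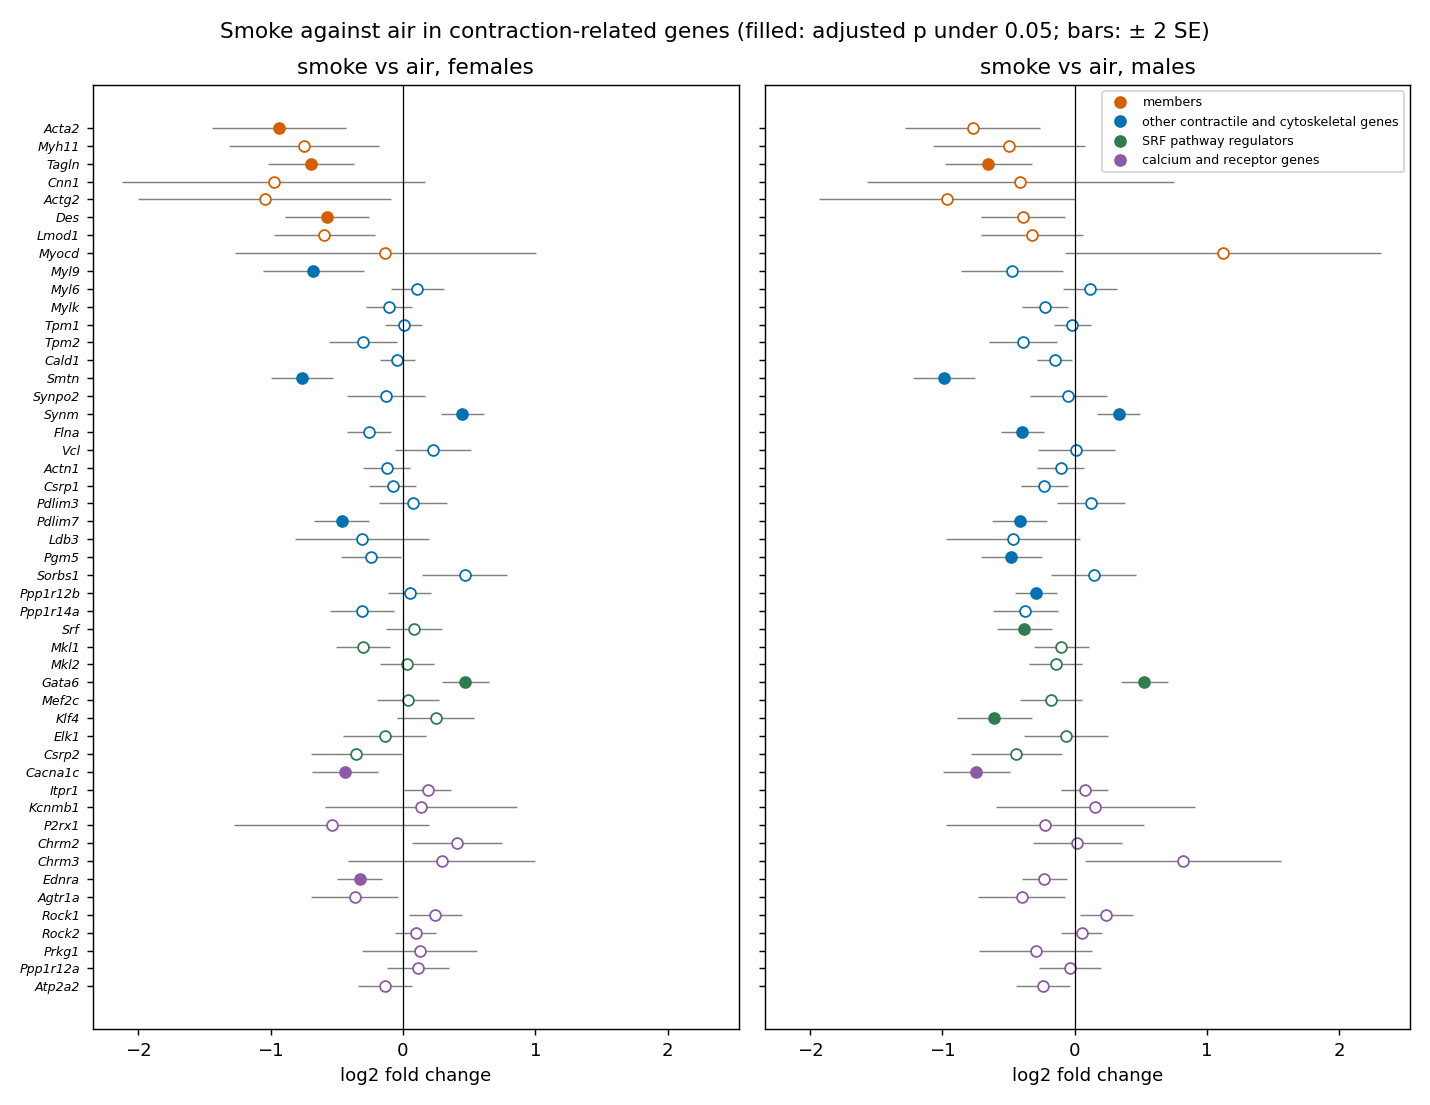
Log2 fold change for smoke against air in females (left) and males (right) of the 8 genes and of 3 lists of contraction-related genes, with bars of ± 2 SE and filled points at an adjusted p under 0.05. In both panels Smtn is among the lowest filled points, and Synm and Gata6 are filled on the right of 0.

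Among 8 regulators of the SRF pathway, 1 rose and none fell in females, and 1 rose and 2 fell in males. In females a count of 1 in 8 is near the 7.7% called over all genes and is no result about the list. Gata6, a transcription factor of smooth muscle that lung epithelium also expresses, rose in both sexes, by 0.47 (SE 0.09) and by 0.52 (SE 0.09) on the log2 scale in females and males. Srf was at 101.5 ± 13.5 CPM in male air (n = 3) and 77.9 ± 7.56 CPM in male smoke (n = 5), a fall of 0.38 on the log2 scale (SE 0.10, adjusted p = 0.0220). In females it was 76.8 ± 8.97 CPM in air and 81.2 ± 8.64 CPM in smoke (log2 0.08, SE 0.11). Klf4, a repressor of contractile genes that endothelium and other cells also express, fell by 0.61 in males (SE 0.14, adjusted p = 0.0108) and gave 0.25 in females, where it did not pass the test.

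Of 14 calcium-handling and receptor genes, 13 could be tested. Kcnma1, the large-conductance potassium channel, had between 0 and 22 counts per library and was filtered out. In females 2 of the 13 fell and in males 1. In males a count of 1 in 13 is near the 5.33% of all genes that fell and is no result about the list. Cacna1c, the voltage-gated calcium channel that opens on depolarisation, fell 1.36-fold in females (36.2 ± 5.81 to 26.7 ± 2.42 CPM) and 1.67-fold in males (37.1 ± 6.37 to 22.2 ± 2.89 CPM). Ednra, the endothelin A receptor, fell 1.25-fold in females (adjusted p = 0.0210) and gave -0.23 in males (adjusted p = 0.0936). No gene of these 3 lists was called in any comparison of sex, surgery or time.

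Levels of other cell types' markers moved beside these genes. The summed level of 6 airway epithelium markers (Scgb1a1, Scgb3a2, Cyp2f2, Foxj1, Dynlrb2 and Tmem212) was 27890 to 39500 CPM in female air and 8691 to 28270 CPM in female smoke. It was 11671 to 32561 CPM in male air, 5747 to 34886 CPM in male smoke and 4436 to 9652 CPM in the second experiment. The highest male smoke value belonged to library 4, the same library that was highest for the contractile genes. None of the 6 markers was at 0 in any group, and 0 of 6 were called in either sex. The levels of the 8 genes were summed in the same way, and both sums were taken as log2. In the sum of the 8 genes the abundant Tagln, Acta2 and Des weigh most. Across the 32 libraries, with group means taken out, the sums had a Pearson r of 0.705 and a Spearman rho of 0.734. By experiment, r was 0.816 (first) and 0.675 (second), over 16 libraries each. It was 0.728 in the first experiment without the 2 libraries farthest from the median. In the second experiment a high r was not particular to the airway sum. There r was 0.743 for markers of alveolar fibroblasts and myofibroblasts, 0.716 for large vessel endothelium and 0.673 for pericytes. It was lower for cardiac (0.472) and skeletal muscle markers (0.411). In the first experiment r was -0.345 for the fibroblast list, -0.307 for large vessel endothelium and 0.0837 for pericytes. Both values of a library come from the same RNA and the same scaling, and r is given as a description.

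**Figure D5:**
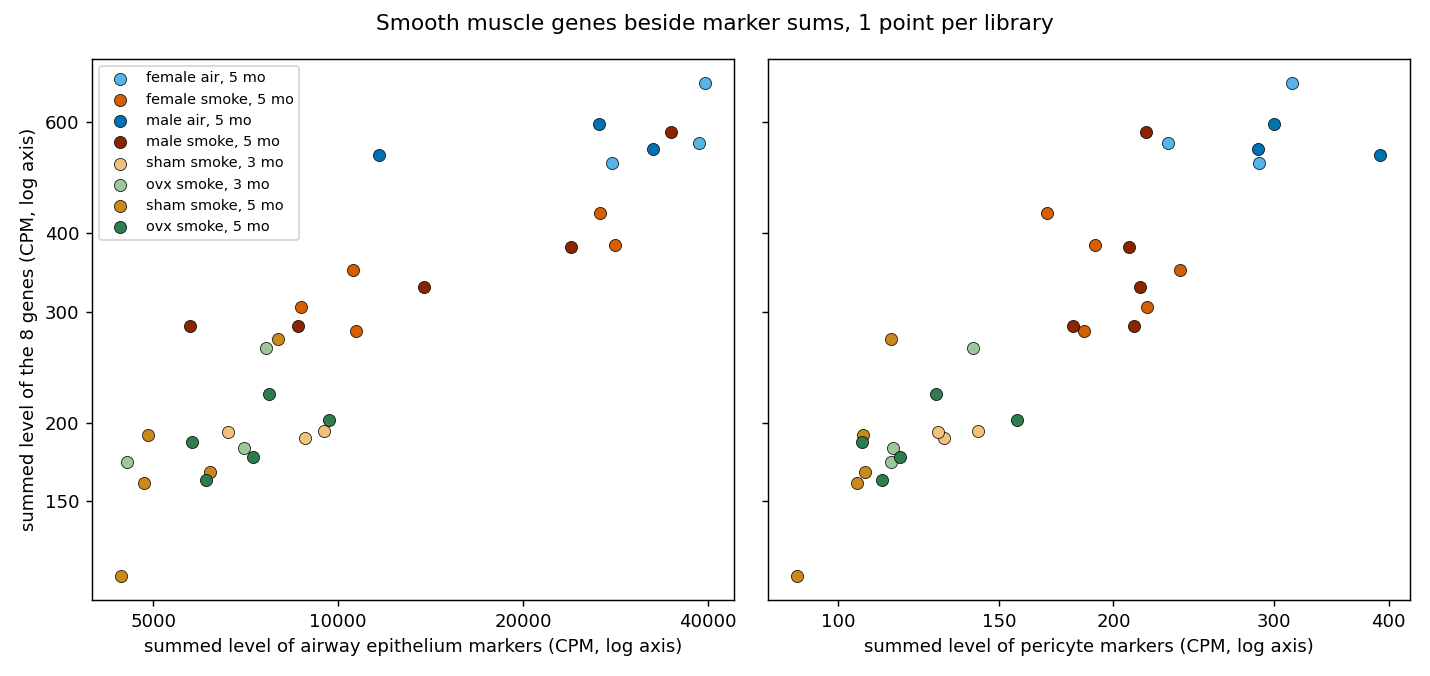
Summed level of the 8 genes against the summed level of 6 airway epithelium markers (left) and 8 pericyte markers (right), in CPM on log axes, with 1 point per library coloured by group. With group means taken out, libraries with a higher airway sum tended to have a higher contractile sum (Pearson r = 0.705). Between groups this did not always hold. Male air library 3 was at 11671 CPM for airway and 532 CPM for the 8 genes, female smoke library 5 at 28270 and 382 CPM. Libraries of the second experiment lie at the lower left of both panels.

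With the airway sum added to the model as a covariate, an alternative chosen after the data were seen, 0 of the 8 genes were called in females. Acta2 then gave -0.52 (adjusted p = 0.0506), Tagln -0.46 (0.0553), Des -0.30 (0.116) and Myh11 -0.30 (0.425), while Cnn1 turned to 0.04 and Myocd to 0.44. In males 2 genes were called in that fit, Acta2 at -0.61 (adjusted p = 0.00820) and Tagln at -0.56 (0.00585). Over all genes, the fit with the covariate called 1225 in females and 2032 in males, beside 1259 and 1678 without it. The airway sum comes from the same RNA and itself differed with exposure. In females its median was 38723 CPM in air and 10691 CPM in smoke. This fit therefore cannot part airway content from exposure, and the part of airway content in the smoke difference was not tested.

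Of 8 pericyte markers, 2 fell in females (Cox4i2, 1.54-fold, and Pdgfrb, 1.58-fold) and 3 fell in males (Notch3, 1.80-fold, Pdgfrb, 1.87-fold, and Cox4i2, 1.41-fold). Their sum was 229 to 313 CPM in female air and 169 to 236 CPM in female smoke, and 288 to 392 CPM in male air and 181 to 217 CPM in male smoke. Male smoke library 4, high for the contractile genes, was at 217 CPM, below every male air library. In the second experiment 1 of the 8 pericyte markers was called higher after ovariectomy at 5 months and 0 at 3 months. Over all genes 1.36% were called in either direction at 5 months. The marker was Rgs5 (7.28 ± 0.832 CPM in sham, 12.4 ± 4.58 CPM in ovariectomized, n = 5 each, adjusted p = 0.0381). Of 7 markers of alveolar fibroblasts and myofibroblasts, which can also express Acta2, 1 fell in females (Hhip, 1.67-fold) and 2 in males (Mustn1, 1.60-fold, and Npnt, 1.29-fold). In females a count of 1 in 7 is near the 7.7% called over all genes and is no result about the list.

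The 9 cardiac muscle markers, which matter for Des because cardiomyocyte sleeves of the pulmonary veins express desmin, summed to 236 to 459 CPM in female air and 202 to 356 CPM in female smoke. The sums were 368 to 510 CPM in male air, 171 to 446 CPM in male smoke and 119 to 507 CPM in the second experiment, and 0 of 9 were called in either sex. The within-group r of their log2 sum with that of the contractile genes was 0.572. By experiment it was 0.715 (first) and 0.472 (second). Skeletal muscle markers summed to 5.96 to 16.2 CPM over all libraries, with Myh4 at 0 in every library of male air, male smoke, female smoke and sham females at 3 months, and Myh2 at 0 in every library of the 4 groups of the second experiment. Of 4 mesothelial markers, 2 rose in females (Wt1, log2 0.58, and Lrrn4, log2 0.67) and 0 in males. The within-group r of their sum, taken in the same way, was -0.524. By experiment it was -0.343 (first) and -0.799 (second), and 0.0989 in the first without the 2 libraries farthest from the median. No marker of large vessel endothelium (4 genes) was called in either sex. The part of these cell types in the contractile genes' levels was not tested.

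The 7 genes other than Myocd varied together across libraries, with a Pearson r of log2 CPM between 0.658 (Cnn1 with Lmod1) and 0.972 (Acta2 with Des) for each pair. With Myocd r was lower, between 0.00320 (Lmod1) and 0.451 (Cnn1). Over all 28 pairs, the Pearson r of log2 CPM across 32 libraries had a median of 0.855, and 0.629 once group means were taken out. The tightest pair within groups was Acta2 with Des (r = 0.897), followed by Acta2 with Myh11 (0.878) and Myh11 with Actg2 (0.875). The loosest was Lmod1 with Myocd (0.0463). Myocd, at a few counts per library, had its closest partner in Cnn1 (0.605). The pairs share library, depth and scaling.

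Ranked over 13401 genes by within-group r with the members' mean standardised level, Myl9 came first (r = 0.875). Next came 1700016K19Rik (0.818), Ccdc96 (0.807), Palmd, which encodes palmdelphin (0.798), and the retinal dehydrogenase gene Aldh1a1 (0.794). Dyrk3 (0.784), Gstm1 (0.770), Gpx2 (0.767) and 1700007K13Rik (0.766) were also among the first 10. Without male smoke library 4 and sham library 5 at 5 months, the 2 libraries farthest from the median, these r lay between 0.661 (Gpx2) and 0.811 (Myl9). Among the contraction-related lists, r was 0.683 for Csrp2 and 0.676 for Tpm2, the tropomyosin beta gene, but 0.419 for Srf, 0.363 for Mylk and -0.475 for Gata6.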

How the data were processed

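Poly(A) RNA from 32 lung libraries was counted per Ensembl gene; the deposited table holds whole-number counts for 35275 genes. The second table deposited by the authors holds TPM for 35186 of them. That unit was settled from the values: 100% equal count over gene length, scaled per library (tolerance 1e-06). No TPM is given for 89 genes, and 0 columns were left unmapped. Per the labels' protocols, Trizol was used for RNA and the NEBNext Ultra 2 kit for libraries; the submitters' processing notes name FastQC, GRCm38 and mm10. For aligner, counter and strand setting, nothing is given in the sources used here.

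The counts were fitted per experiment with edgeR 4.0.16 (R 4.3.3): filterByExpr by group, TMM, 1 mean per group, robust quasi-likelihood test, Benjamini-Hochberg adjustment over all 16361 (first experiment) or 16874 (second) genes tested, called at an adjusted p under 0.05. SE is the absolute log2 difference over the square root of F. CPM uses each experiment's TMM-scaled totals, so levels across experiments are compared in TPM. Correlations use log2 CPM with a prior count of 2. The 8 genes and all lists were chosen with earlier results of these data known. Other genes are named by rule: those called, at most the 4 with the smallest p per list and comparison, and the 10 with the highest within-group r among genes of mean log2 CPM of at least 1, of which 1 is not reported here; Mylk, Cald1, Myl6, Csrp2, Tpm2 and uncalled values of genes called in the other sex were added after the values were seen.

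Alternatives were RLE size factors, no filter, a stricter filter (1 CPM or more in 3 libraries), a replicate block, 1 fit over both experiments, fits of only the 2 groups compared, DESeq2 1.42.0, limma-trend (limma 3.58.1) on log2(TPM + 1), leaving out each library, and the airway sum as covariate, added after the data were seen. Libraries of a group differed beyond sampling noise (smallest chi-square per degree of freedom 8.99 over 52 pairs), so none was counted as a copy. Promoter windows are RefSeq's (GRCm38.p6).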

Additional observations from a re-analysis of the deposited data

Results flagged for a closer look

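Of 32 sets of gene and group with 5 libraries screened for a single distant value, 3 were singled out, and chance singles out about 1 in 20. Acta2 in smoke-exposed male library 4 was at 129.7 CPM, with the nearest of the other 4 at 75.9 CPM. Des in the same library was at 138 CPM, with the nearest at 91.2 CPM. Actg2 in library 5 of the sham females at 5 months of smoke was at 6.69 CPM, with the nearest at 2.87 CPM. Both libraries were the highest of their group for 7 of 7 genes other than Myocd.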

How the results depend on the processing

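In females, 3 of the 8 genes were called for smoke against air; without a filter on low counts the count was 1 (Tagln; Acta2 adjusted p = 0.0723, Des 0.0963), with the airway covariate 0, with all 32 libraries in 1 fit 2, with DESeq2 4 (Lmod1 also called), and with 1 library left out 0 to 3. Over all genes the main fit called 1259 in females. The alternatives just named called 1158 (no filter), 1225 (covariate), 1383 (1 fit), 1676 (DESeq2) and 490 to 1151 (1 library left out). In males the count was 1, against 3 with limma-trend on log2(TPM + 1), 2 with DESeq2, 2 with the airway covariate, and 0 to 5 with 1 library left out. Over all genes the male calls were 1678, against 992 (limma-trend), 2011 (DESeq2), 2032 (covariate) and 962 to 1694 (1 library left out). In the 7 other comparisons the count was 0 under each alternative that was run; the interactions and the time comparison were not run on only the groups compared. Acta2 in females also missed the threshold with only the groups compared (adjusted p = 0.0506), and Des with all 32 libraries in 1 fit (0.0853). No log2 difference of Acta2, Tagln or Des that was called changed sign. With the replicate number as a block, 3 genes were called in females (Tagln, Des and Lmod1, with Acta2 at adjusted p = 0.0689). In males 1 was called, and the block changed no other call. Over all genes the block fit called 1160 in females and 1501 in males. Same-numbered libraries of different groups deviated with a mean r of 0.0197 (first experiment) and -0.0447 (second). For different numbers it was -0.00519 and 0.0117. The labels do not say that the numbers are a pairing, and the main fits used none. Groups of 3 or 5 libraries and, for Myocd, at most 39 counts per library limit what could be detected.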
